A study of Mus musculus with 6 samples.

Results

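The genes described here are the chemokines, the interleukins and their receptors, the prostaglandin and NF-kB feedback genes that act with them, and the genes that interferons induce, in cultured chondrocytes of mice with and without the microRNA gene Mir34a. They were chosen by gene symbol alone, as the rows of the deposited table that belong to these families, and number 79 of its 10189 genes. Of the 79 members, 47 are cytokine and inflammation genes, made up of 14 chemokines and cytokines, 27 receptors, decoys and antagonists, and 6 enzymes and NF-kB feedback genes. The other 32 are interferon-response genes, made up of 9 transcription factors (interferon regulatory factors, IRFs, and STATs) and 23 interferon-induced effectors. RefSeq lists 208 protein-coding mouse symbols of the same form, and 129 of these had no row and were not analysed here, among them Il6, Il11, Lif, Il6ra, Tnfaip6, Nos2, Isg15, Mx1, Rsad2 and Igtp. Every row of the table reaches at least 7.35 CPM in 2 or more of the 6 libraries, so the members are genes that had passed a filter on low values, and their counts and medians describe these 79 genes and not the whole families.

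KO cells came from mice homozygous for a global deletion of Mir34a (MiR-34a -/-), bred from heterozygous parents. WT cells came from wild-type mice. Both were C57BL/6, 5 weeks old and untreated, and the labels give the allele name Mir34atm1.2 Mrl for both genotypes. Cartilage of knees and hips was pooled and digested with collagenase, and the released chondrocytes, the cells that make cartilage matrix, were grown in serum before total RNA was sequenced, so the libraries report cultured cells and not cartilage itself. Each genotype had 3 libraries. The sources used here do not say whether a library came from 1 animal, and p-values measure the spread between these libraries, which may be technical.

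Values are TMM-normalized CPM, which the authors scaled between libraries from reads relative to library size. The libraries held 989217 to 5266617 reads on the genes of the table, of which 59.1% of those of WT 1 lay on Rn45s, a ribosomal RNA precursor. Without Rn45s, Lars2 and Mir6236 the range was 947081 to 1772185 reads, and 1 read was worth 0.382 to 0.762 CPM. Mir34a had 0 rows, so the deletion could not be read from the table. Of 18 chondrocyte markers 16 had a row, and they summed to 7282, 4116 and 4150 CPM in KO 1, KO 2 and KO 3, against 4070, 2916 and 2590 CPM in WT 1, WT 2 and WT 3. Of 25 macrophage and leukocyte markers 24 had a row, and they summed to 1377, 17482 and 4522 CPM in the KO libraries, against 7535, 7102 and 6357 CPM in the WT libraries. Lyz2 made up much of these sums, and the other 23 markers summed to 783, 5317 and 2765 CPM in the KO libraries, against 3396, 3776 and 2708 CPM in the WT libraries. KO 2 was thus above and KO 1 below every WT library with and without Lyz2, while KO 3 was below every WT library only with it. None of 10 lymphocyte markers had a row. In bulk RNA of this kind, fewer cells of a type and less RNA per cell cannot be told apart.

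Chemokines are small secreted proteins that draw leukocytes into tissue through G-protein-coupled receptors, and interleukins act through receptor chains that signal by JAK kinases and STATs or, in the IL-1 family, by NF-kB. Interferons act through STATs and IRF9, which bind interferon-stimulated response elements (ISREs) in the promoters of antiviral genes. In cartilage, IL-1 and TNF are known to make chondrocytes release chemokines, prostaglandin E2 and matrix-degrading enzymes, and miR-34a, like other microRNAs, represses mRNAs whose 3′ untranslated region (3′ UTR) pairs with its seed.

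The mature strand of miR-34a is shown first, from RefSeq (GRCm38.p6, chr4:150068473-150068494, plus strand), because it is the RNA that the KO cells lack, and the capitals mark its seed, bases 2 to 8. The lines after it are the members' 3′ UTR stretches (GENCODE M21, the mm10 build, plus strand) in which a full match to the seed, in capitals, is followed by an A. Il4ra lies on chr7:125577619-125577647, Cx3cl1 on chr8:94781386-94781414 and Cxcl12 on chr6:117179750-117179778.
mmu-miR-34a-5p: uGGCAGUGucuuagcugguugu
Il4ra: attgcccaaagtCACTGCCagttacccac
Cx3cl1: aacattaatagtCACTGCCattccactgg
Cxcl12: ttaatgcaagttCACTGCCactttgacaa
Of the 77 members with an annotated 3′ UTR, 13 (16.9%) held at least 1 match of CACTGCC, against 1673 of 9343 genes of the table (17.9%). By their mean on the log2 scale, 10 of the 13 (76.9%) had a lower KO value and 3 a higher one, with a median log2 fold change of −0.20. A lower KO value was found in 65.8% of all members and 48.6% of all genes. Most members with the match were thus lower, but not all. Il4ra had the smallest p among members with a lower KO mean and Cx3cl1 the smallest among those with a higher one.

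Over all members, 52 had a lower and 27 a higher KO mean of log2(CPM + 0.5), and the median log2 fold change of KO over WT was −0.18, against 0.02 over all genes of the table, of which 48.6% had a lower KO mean. The lower values lay with the cytokine and inflammation genes, where 35 of 47 (74.5%) had a lower KO mean and the median was −0.27. That share depended on single libraries. It was 57.45% without KO 1 and 59.57% without WT 3, against 47.61% and 49.47% of all genes. The macrophage and leukocyte markers also had lower KO means, in 20 of 24 (83.3%) with a median of −0.56, and their part in the members' values was not tested. The interferon-response genes had 17 lower and 15 higher means and a median of −0.08, and that median was 0.20 without KO 1 and 0.11 without WT 2. No member had a limma adjusted p below 0.05 (0 of 79, against 0.00981% of all genes lower and 0% higher), and edgeR and limma-voom on recovered reads also called 0 members, against 0.0196% and 0.00981% of all genes. DESeq2 called 2 members, Il4ra and Ccr1, both lower in KO, against 0.718% of all genes lower, 0.413% higher and 1.13% in either direction. With a limma p below 0.05 before adjustment, 4 members were lower and 3 higher (8.86%), against 6.40% of all genes lower, 4.64% higher and 11.0% in either direction, so the members' share was not above that of the table. The 3 KO values lay wholly below the 3 WT values in 7 members and wholly above in 6, against 9.57% and 8.82% of all genes.

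**Figure D1:**
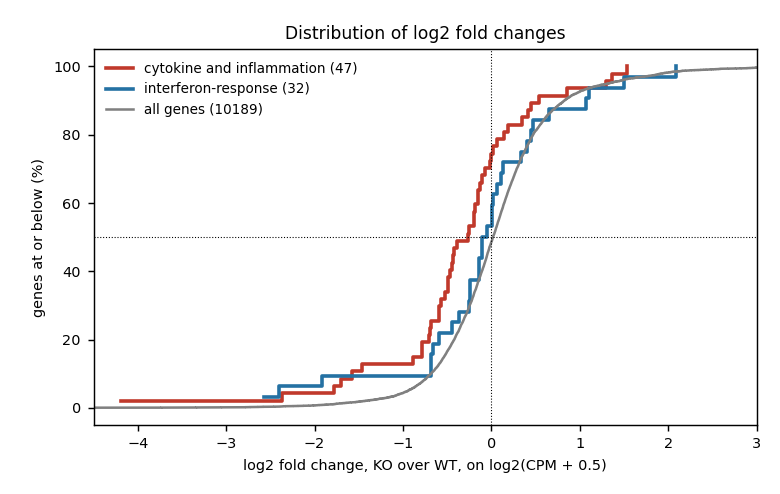
Cumulative share of genes (y axis, percent) at or below each log2 fold change of KO over WT on log2(CPM + 0.5) (x axis), for the 47 cytokine and inflammation genes, the 32 interferon-response genes and all 10189 genes. The cytokine curve crosses 50% at −0.27, left of the all-gene curve at 0.02, and the interferon curve crosses at −0.08.

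Among the 14 chemokines and cytokines, 11 had lower KO means and 3 higher ones, with a median log2 fold change of −0.51, and Cx3cl1 was the member of smallest p. Cx3cl1 encodes fractalkine, a membrane-bound chemokine that is read by CX3CR1 on monocytes and macrophages. Cx3cl1 had 44.3, 15.7 and 35.5 CPM in the KO libraries, against 11.9, 12.2 and 10.6 CPM in the WT libraries, where the libraries of each genotype are listed in the order 1, 2 and 3 here and throughout. All 3 KO values lay above the 3 WT values, although KO 2 stood only a little above WT 2, and the mean was 2.75-fold higher in KO. Cx3cl1 had a log2 fold change of 1.30 (SE 0.41) and a limma adjusted p of 0.315.

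Several chemokines that recruit neutrophils and monocytes had lower KO means with groups that overlapped. Cxcl5 and Cxcl1 draw neutrophils through CXCR2. Cxcl5 had 102, 173 and 69.7 CPM in the KO libraries, against 254, 86.1 and 238 CPM in the WT libraries. Cxcl1 had 17.2, 20.1 and 7.34 CPM in the KO libraries, against 20.7, 16.0 and 33.4 CPM in the WT libraries. In both, KO 3 was the lowest of the KO libraries and WT 2 the lowest of the WT libraries, and the log2 fold changes were −0.69 and −0.69. Ccl2 and Ccl7 draw monocytes through CCR2. Ccl2 had 37.0, 50.5 and 15.9 CPM in the KO libraries, against 64.1, 36.6 and 56.3 CPM in the WT libraries. Ccl7 had 45.8, 47.5 and 31.2 CPM in the KO libraries, against 72.2, 35.0 and 75.0 CPM in the WT libraries. KO 3 was again the lowest library and WT 2 lay among the KO values, and the log2 fold changes were −0.71 and −0.49. None of these 4 genes passed (limma adjusted p 0.543 to 0.587), and each kept a negative log2 fold change whichever library was left out. Without KO 3 the values were smaller, at −0.39 for Cxcl5, −0.26 for Cxcl1, −0.23 for Ccl2 and −0.30 for Ccl7.

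Cxcl14, a chemokine of epithelia and mesenchyme, had the smallest p among ligands with a lower KO mean. Cxcl14 had 21.0, 4.41 and 20.8 CPM in the KO libraries, against 32.0, 16.0 and 110.2 CPM in the WT libraries. The WT mean rested on WT 3, and WT 2 lay below KO 1 and KO 3. Cxcl14 had a log2 fold change of −1.58 (SE 0.75) and a limma adjusted p of 0.478, and without WT 3 it was −0.82. Cxcl12 is the CXCR4 ligand of stromal cells. Cxcl12 had 201, 203 and 133 CPM in the KO libraries, against 302, 268 and 100.3 CPM in the WT libraries. WT 3 was the lowest of the 6 libraries and WT 1 the highest, and the log2 fold change of −0.19 ran from −0.69 to 0.10 as libraries were left out in turn. The remaining 7 ligands are Cxcl3, Cxcl16, Ccl3, Ccl6, Ccl9, Il16 and Il34, with log2 fold changes of −1.46 to 0.18, limma adjusted p of 0.663 to 0.992 and groups that overlapped. Ccl3, Ccl6 and Ccl9 are chemokines of macrophages, and KO 2 was the highest of the 6 libraries in each of them, at 75.9, 105.8 and 167 CPM, against 73.9, 52.1 and 102.6 CPM in the highest WT library.

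The Cxcl1 and Cxcl3 genes lie close together on chromosome 5 and share letters that match the NF-kB consensus, which was searched on both strands. The stretch from 100 to 40 bases before each start is printed because these are the neutrophil chemokines of the list with such a match (RefSeq, GRCm38.p6, plus strand, chr5:90891145-90891205 for Cxcl1 and chr5:90786001-90786061 for Cxcl3). Cxcl5 had no promoter among those that RefSeq gives and was not searched. The capitals mark the shared letters, in which a pair of matches overlaps.
Cxcl1: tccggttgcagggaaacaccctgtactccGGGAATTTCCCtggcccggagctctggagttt
Cxcl3: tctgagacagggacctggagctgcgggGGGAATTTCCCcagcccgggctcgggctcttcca
Cxcl3 had 3.43, 9.80 and 0 CPM in the KO libraries, against 6.28, 3.05 and 17.0 CPM in the WT libraries. Like Cxcl1, Cxcl3 was highest in WT 3 and lowest in KO 3. The NF-kB consensus was present in 9 of the 35 cytokine and inflammation promoters that RefSeq gives (25.7%), in 3 of 25 interferon-response promoters (12%) and in 6.05% of 8114 promoters of the table, over 300 bases around the start.

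Lower KO means were frequent among receptors, decoys and antagonists. Of 27 members, 22 had lower KO means and 5 higher ones, with a median log2 fold change of −0.27, and 5 (18.5%) had KO values wholly below the WT values and 0 wholly above, against 9.57% and 8.82% of all genes. Il4ra encodes the alpha chain shared by the receptors for IL-4 and IL-13. Il4ra had 35.1, 95.5 and 40.4 CPM in the KO libraries, against 181, 174 and 151 CPM in the WT libraries. All 3 KO values lay below the 3 WT values, and KO 2 was nearest to them. Il4ra had a log2 fold change of −1.70 (SE 0.35) and a limma adjusted p of 0.238, and the mean was 2.96-fold lower in KO. DESeq2 gave an adjusted p of 0.0114. Limma without KO 2, the KO library nearest to WT, gave a log2 fold change of −2.14 with an adjusted p of 0.0124. Leaving that library out must enlarge the difference, so this p is no separate evidence. Over all 10189 genes that fit called 25 lower and 7 higher. The log2 fold changes over all leave-one-out fits were −2.14 to −1.43. The exons of Il4ra share 571 bases with Gm44876 on the opposite strand, and the reads of overlapping genes cannot be told apart without strand.

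Ccr1 is a receptor for CCL3, CCL5 and CCL7 on monocytes, macrophages and neutrophils. Ccr1 had 5.72, 12.2 and 0 CPM in the KO libraries, against 51.5, 70.1 and 64.5 CPM in the WT libraries. KO 3 had no read, where 3 reads would give 1.84 CPM, and all 3 KO values lay far below the WT values. The KO libraries held 40 reads in all, against 284 in the WT libraries, and the mean was 10.4-fold lower in KO. Ccr1 had a log2 fold change of −4.18 (SE 0.99) and a limma adjusted p of 0.273. DESeq2 gave a log2 fold change of −3.33 with an adjusted p of 2.98e-04, and the limma value ran from −5.14 to −2.80 as libraries were left out in turn. 

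Il1rn encodes the IL-1 receptor antagonist, which binds the IL-1 receptor without signalling. Il1rn had 29.4, 64.2 and 10.4 CPM in the KO libraries, against 111, 87.6 and 85.6 CPM in the WT libraries. All KO values lay below all WT values, with KO 2 the highest and KO 3 the lowest of the KO libraries. Il1rn had a log2 fold change of −1.78 (SE 0.53) and a limma adjusted p of 0.298, DESeq2 gave an adjusted p of 0.179, and the mean was 2.74-fold lower in KO. The log2 fold change was −2.39 without KO 2 and −1.11 without KO 3.

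Il4ra, Ccr1 and Il1rn are expressed by macrophages, among other cells, and within the KO libraries all 3 were highest in KO 2, the library with the most leukocyte marker transcripts. KO 2 had 17482 CPM of those markers, more than any WT library, and its values of Il4ra, Ccr1 and Il1rn lay below every WT library. KO 2 was the highest KO library for 22 of the 24 markers (91.7%). Mrc1, the macrophage mannose receptor and the marker of smallest p, was not among them. Mrc1 had 63.7, 212 and 249.6 CPM in the KO libraries, against 447, 669.7 and 361 CPM in the WT libraries. Marker transcripts of other cell types were also compared between the genotypes. Of 11 neutrophil markers 4 had a row, S100a8, S100a9, Lcn2 and Mmp8, and all 4 had lower KO means. Ly6g, Mpo, Elane, Ngp, Camp, Ltf and Csf3r had no row, so the comparison rests on those 4 genes. S100a8 and S100a9 had 0 reads in each KO library, where 3 reads would give 1.14 to 1.84 CPM, against 17.0 to 25.9 CPM and 36.9 to 51.5 CPM in the WT libraries. The neutrophil markers summed to 217, 95.0 and 76.5 CPM in the KO libraries, against 403, 187 and 189 CPM in the WT libraries. Lcn2, whose groups overlapped, made up most of that sum, and the other 3 markers summed to 3.05, 3.43 and 5.51 CPM in the KO libraries, against 87.3, 86.1 and 76.2 CPM in the WT libraries. Of 7 mural cell markers 6 had a row, 5 had lower KO means, and their sum was 235 to 458 CPM in KO, against 557 to 715 CPM in WT. Of 6 endothelial markers 2 had a row, summing to 0, 43.6 and 0 CPM in KO, against 11.3, 19.8 and 34.0 CPM in WT, and their groups overlapped. The part of the macrophage, neutrophil, mural and endothelial transcripts in the members' values was not tested.

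**Figure D2:**
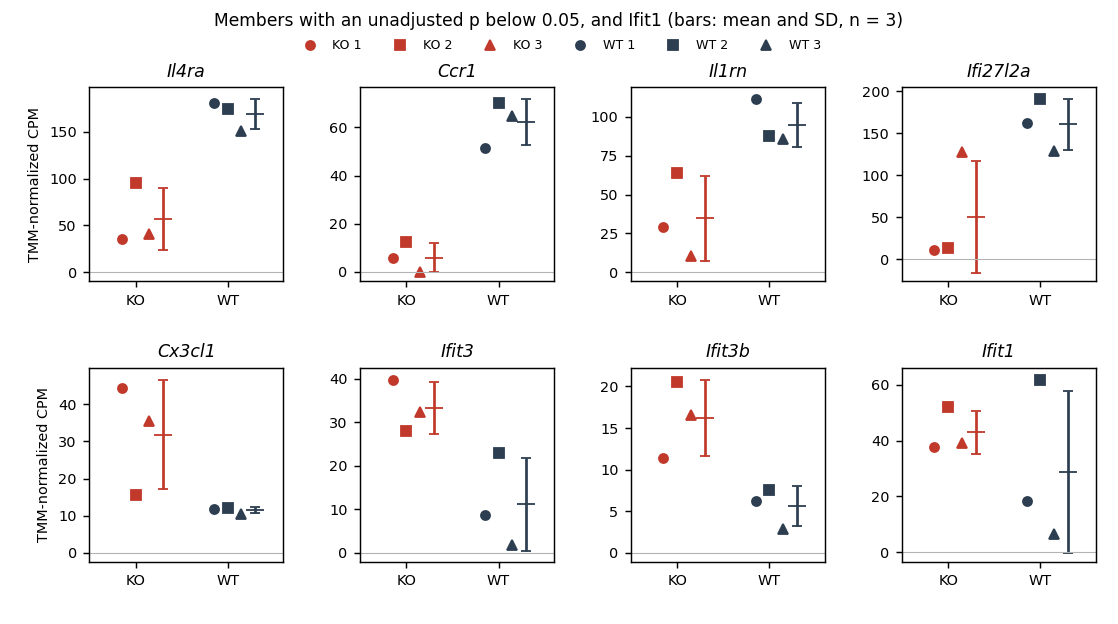
TMM-normalized CPM (y axis) of Il4ra, Ccr1, Il1rn, Ifi27l2a, Cx3cl1, Ifit3, Ifit3b and Ifit1 in each KO and WT library (points, shaped by library number), with the mean and SD of 3 libraries as bars. Il4ra, Ccr1 and Il1rn sit wholly lower in KO, Cx3cl1, Ifit3 and Ifit3b wholly higher, and Ifi27l2a in KO 3 (127 CPM) lies next to WT 3 (129 CPM).

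Il1r1 and Il6st, receptors of the main inflammatory interleukins, spread more among libraries of 1 genotype than between genotypes. Il1r1 is the signalling IL-1 receptor. Il1r1 had 40.8, 24.5 and 58.7 CPM in the KO libraries, against 43.3, 29.0 and 79.2 CPM in the WT libraries. Il6st is gp130, the signal chain shared by IL-6, IL-11 and LIF. Il6st had 569, 329 and 439 CPM in the KO libraries, against 509.5, 313 and 454 CPM in the WT libraries. The groups overlapped in both, with log2 fold changes of −0.25 and 0.06, and the sign of each changed as libraries were left out (−0.58 to 0.13 and −0.15 to 0.26). Il11ra1, the IL-11 receptor chain, had the smallest p among receptors with a higher KO mean. Il11ra1 had 19.5, 10.3 and 14.1 CPM in the KO libraries, against 4.40, 6.86 and 14.1 CPM in the WT libraries. KO 2 lay below WT 3, so the groups overlapped, and the log2 fold change was 0.86 (limma adjusted p = 0.558).

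Of the 8 CC and CXC chemokine receptors, 5 (62.5%) had the KO order of the leukocyte marker sum, against 18.5% of all genes, a pattern chosen after the values were seen. The order was not particular to receptors of monocytes and macrophages, since Cxcr6 had it and Ccr1 did not. Ccr2 is the receptor for CCL2 and CCL7. Ccr2 had 0, 40.7 and 15.3 CPM in the KO libraries, against 30.8, 49.5 and 28.1 CPM in the WT libraries. Cxcr4 is the receptor for CXCL12. Cxcr4 had 2.67, 43.6 and 3.67 CPM in the KO libraries, against 11.9, 3.81 and 10.6 CPM in the WT libraries. In both genes KO 1 was the lowest and KO 2 the highest KO library, as in the leukocyte marker sum, and the KO 2 value of Cxcr4 was 16.3 times that of KO 1. Il10ra, the IL-10 receptor chain of leukocytes, was 18.4 times higher in KO 2 than in KO 1, at 42.1 and 2.29 CPM. The log2 fold changes of Ccr2, Cxcr4 and Il10ra between the genotypes were −2.37, −0.01 and −0.79, with limma adjusted p of 0.522 or more. These values rested on single libraries. Without KO 1, the library at 0 reads of Ccr2, they were −0.48, 0.69 and 0.16, and edgeR gave −0.96, 0.90 and −0.06.

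Cxcr6 and Il18bp, named after their values were seen, were the remaining receptors or decoys with KO values wholly below WT. Il18bp is a secreted protein that binds IL-18. Il18bp had 17.6, 18.1 and 20.2 CPM in the KO libraries, against 23.9, 26.7 and 28.7 CPM in the WT libraries. The spread within each genotype was small, and the log2 fold change was −0.49 (limma adjusted p = 0.517, −0.56 to −0.43 as libraries were left out). Cxcr6 binds CXCL16, and had a log2 fold change of −0.59. Another 15 receptors had log2 fold changes of −0.59 to 1.54, limma adjusted p of 0.522 or more and groups that overlapped, with the lowest value in Il1rl1 and the highest in Il13ra2, which had 0 CPM in WT 2.

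**Figure D3:**
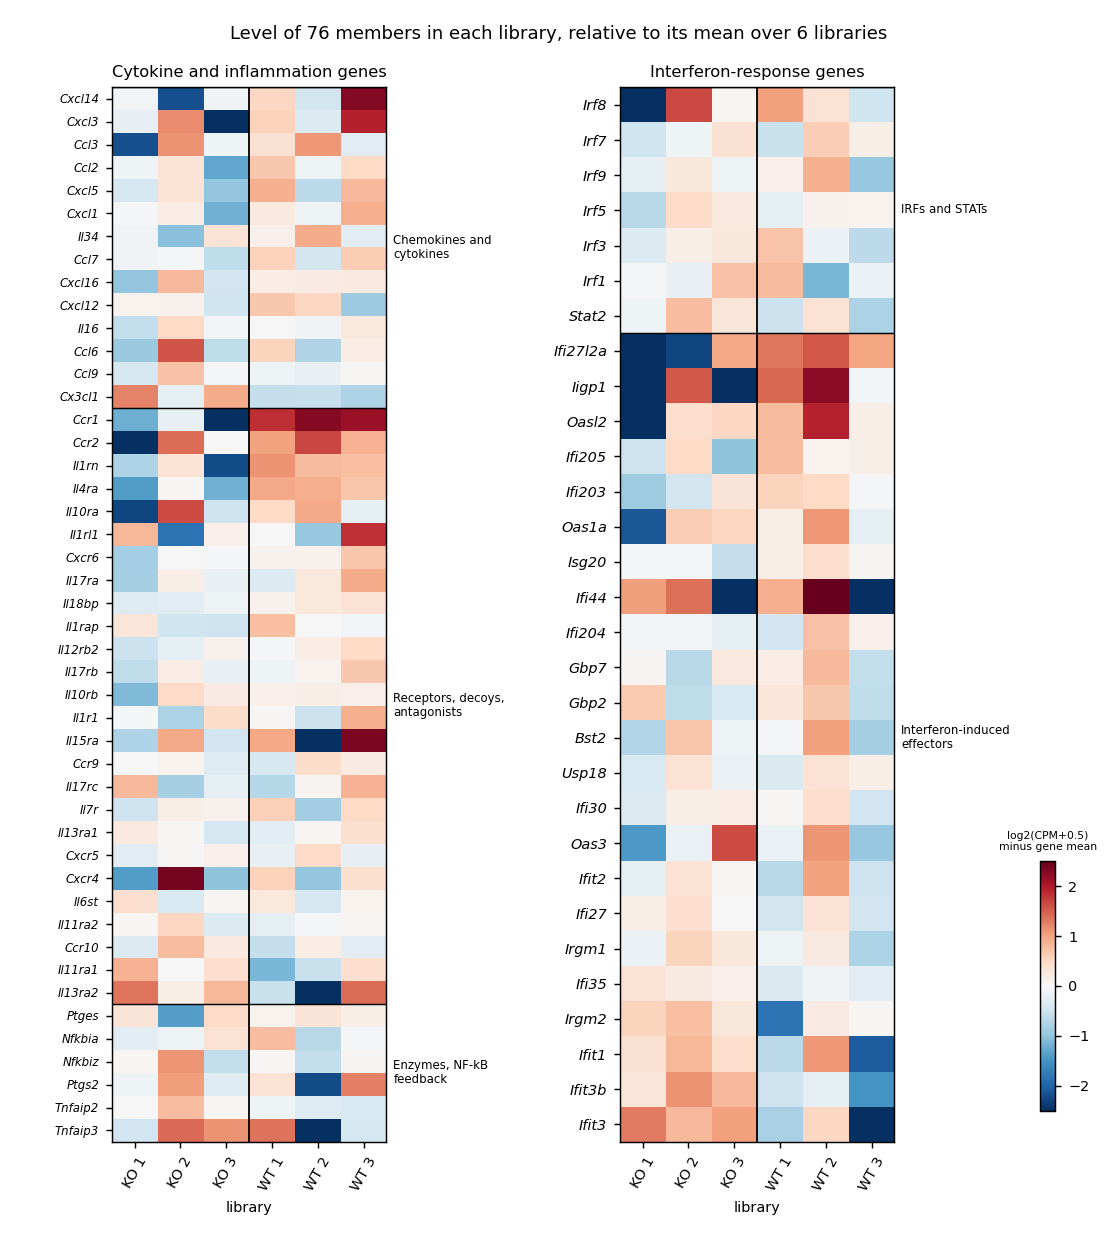
Colour gives log2(CPM + 0.5) minus the gene's mean over the 6 libraries, for 76 of the 79 members (rows, sorted by log2 fold change within each role) in KO 1 to KO 3 and WT 1 to WT 3 (columns), with values beyond the ends of the colour scale shown at its end colours. Ccr1, Il1rn and Il4ra are blue to pale in KO and red in WT, Ifit3 and Ifit3b are red in KO, and WT 2 is the reddest WT column for most interferon-induced effectors.

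The 6 enzymes and NF-kB feedback genes did not share the lower values of the ligands and receptors, with 2 lower and 4 higher KO means and a median log2 fold change of 0.38. Ptgs2 encodes cyclooxygenase-2 and Ptges the synthase that turns its product into prostaglandin E2. Ptgs2 had 38.2, 86.7 and 33.6 CPM in the KO libraries, against 53.4, 8.38 and 100.3 CPM in the WT libraries. Ptges had 38.2, 11.3 and 42.2 CPM in the KO libraries, against 32.0, 38.1 and 34.0 CPM in the WT libraries. Ptgs2 was lowest in WT 2 and highest in WT 3, so its spread within WT covered all KO values, and Ptges was low in KO 2 alone. Nfkbia encodes the inhibitor that holds NF-kB in the cytoplasm, and Nfkbiz a nuclear relative of it, and NF-kB induces both. Nfkbia had 15.6, 17.1 and 24.5 CPM in the KO libraries, against 32.7, 11.4 and 18.2 CPM in the WT libraries. Nfkbiz had 25.6, 53.4 and 15.9 CPM in the KO libraries, against 25.1, 16.0 and 25.8 CPM in the WT libraries. Nfkbia was highest in WT 1 and Nfkbiz in KO 2, and each had groups that overlapped. The log2 fold changes of Ptgs2, Ptges, Nfkbia and Nfkbiz, 0.42, −0.39, −0.02 and 0.35, changed sign as single libraries were left out, and that of Ptgs2 also with edgeR (−0.045) and DESeq2 (−0.014).

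Tnfaip3 encodes A20, an enzyme that switches NF-kB signalling off, and was among the members with the fewest reads. Tnfaip3 had 2.29, 9.80 and 7.95 CPM in the KO libraries, against 9.42, 0 and 2.35 CPM in the WT libraries. WT 2 had no read, and the log2 fold change was 1.37 with an SE of 1.33. Tnfaip2, a TNF-induced gene, was the member of this group with the smallest p. Tnfaip2 had 36.6, 63.2 and 38.5 CPM in the KO libraries, against 34.6, 29.7 and 28.1 CPM in the WT libraries. The KO values lay above the WT values, KO 1 by a small margin. Tnfaip2 had a log2 fold change of 0.54 (SE 0.28) and a limma adjusted p of 0.501. Its exons share 314 bases with Gm40578 on the opposite strand.

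Other NF-kB and cytokine signalling genes, a list of adaptors, kinases, NF-kB subunits and partner factors, had no common direction. Of 36 such genes 28 had a row, 14 with lower and 14 with higher KO means and a median log2 fold change of −0.02. Limma, edgeR, DESeq2 and limma-voom called 0 of them after adjustment. Before adjustment, limma gave 1 lower and 0 higher with p below 0.05. That gene was Cebpd, an inflammation-induced transcription factor. Cebpd had 87.8, 94.6 and 128 CPM in the KO libraries, against 185, 144 and 198 CPM in the WT libraries. All KO values lay below all WT values, and its log2 fold change was −0.77 (SE 0.22) with a limma adjusted p of 0.283. The genes of next smallest p were Tlr4, the receptor for bacterial lipopolysaccharide, at 0.60, Jun, a subunit of AP-1, at −0.65, and Traf6, the adaptor of IL-1 and Toll-like receptors, at −0.62.

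The IRFs and STATs, which carry the interferon signal to the genome, did not separate the genotypes. Of the 9 members 4 had lower and 5 higher KO means, with a median log2 fold change of 0.02, and the groups overlapped in all 9. STAT2 and IRF9 are parts of the complex that binds ISREs. Stat2 had 16.4, 30.4 and 22.0 CPM in the KO libraries, against 11.9, 22.9 and 9.97 CPM in the WT libraries. The groups overlapped, and KO 2 was above WT 2, the highest WT library. Irf9 had 20.6, 29.4 and 22.0 CPM in the KO libraries, against 26.4, 44.9 and 12.3 CPM in the WT libraries, and WT 2 was the highest and WT 3 the lowest of the 6. The log2 fold changes of Stat2 and Irf9 were 0.65 and −0.05, of which that of Irf9 changed sign as libraries were left out (−0.53 to 0.38) and with limma-voom (0.004915).

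Irf3 and Irf7 switch on type I interferon genes once a virus or foreign nucleic acid is sensed. Irf7 had 14.5, 19.1 and 26.9 CPM in the KO libraries, against 13.8, 32.0 and 22.9 CPM in the WT libraries. Irf3 had 12.6, 17.6 and 19.6 CPM in the KO libraries, against 26.4, 14.5 and 9.97 CPM in the WT libraries. Neither separated the genotypes. Irf1, an interferon-gamma target, and Irf8, a factor of myeloid cells, spread more widely. Irf1 had 15.3, 13.7 and 26.3 CPM in the KO libraries, against 27.6, 6.86 and 14.1 CPM in the WT libraries. Irf8 had 1.53, 38.2 and 12.2 CPM in the KO libraries, against 24.5, 15.2 and 8.21 CPM in the WT libraries. Irf8 was 25.0 times higher in KO 2 than in KO 1, the same direction as in Ccr2, Cxcr4 and Il10ra above, and Irf1 was lowest in WT 2. The log2 fold changes of Irf7, Irf3, Irf1 and Irf8 were −0.14, 0.06, 0.33 and −0.59, and all 4 changed sign as single libraries were left out, Irf3 also under quantile normalization (−0.0003638), edgeR (−0.038) and DESeq2 (−0.021), and Irf8 under edgeR (0.11) and DESeq2 (0.13). Irf5, a factor of Toll-like receptor signalling, had a log2 fold change of 0.02.

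The 23 interferon-induced effectors went both ways, with 13 lower and 10 higher KO means and a median log2 fold change of −0.11. The 4 genes of the Ifit family, which encode cytoplasmic proteins that bind foreign RNA or each other and block its translation, all had higher KO means of log2(CPM + 0.5), with a median log2 fold change of 1.30, although Ifit2 turned to −0.06 with edgeR and −0.05 with DESeq2. Ifit3 had 39.7, 27.9 and 32.4 CPM in the KO libraries, against 8.80, 22.9 and 1.76 CPM in the WT libraries. Ifit3b had 11.4, 20.6 and 16.5 CPM in the KO libraries, against 6.28, 7.62 and 2.93 CPM in the WT libraries. In both the KO values lay above the WT values, and WT 3 was the lowest library. Ifit3 had a log2 fold change of 2.09 (SE 0.72) and a limma adjusted p of 0.338, and Ifit3b had a log2 fold change of 1.50 (SE 0.53) and one of 0.348. Without WT 3 that of Ifit3 was 1.19, and without WT 2 it was 2.87. The means were 2.99-fold and 2.88-fold higher in KO. Ifit3 and Ifit3b are near-identical copies, so that counting may have split reads between them, and the pair is not 2 independent observations.

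Ifit1 and Ifit2 shared the KO levels but not the separation. Ifit1 had 37.8, 51.9 and 39.1 CPM in the KO libraries, against 18.2, 61.7 and 6.45 CPM in the WT libraries. Ifit2 had 23.7, 35.8 and 28.8 CPM in the KO libraries, against 17.0, 56.4 and 19.3 CPM in the WT libraries. The 3 KO libraries were close to each other in both genes, while WT 2 was the highest of the 6 libraries and WT 3 or WT 1 the lowest. The log2 fold change of Ifit1 was 1.10 (limma adjusted p = 0.543), 1.92 without WT 2 and 0.33 without WT 3. That of Ifit2 was 0.13, −0.19 without WT 1 and 0.66 without WT 2, with a mean of 29.4 CPM in KO, against 30.9 CPM in WT.

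The promoters of Ifit3, Ifit3b and Ifit1 are printed because these neighbours on chromosome 19 are the Ifit genes with log2 fold changes above 1. The windows of Ifit2 held 0 matches to the ISRE core. The printed windows run from 250 bases before to 50 after the start (RefSeq, GRCm38.p6, plus strand, chr19:34583279-34583578, chr19:34607707-34608006 and chr19:34640639-34640938), and the capitals mark matches to the ISRE core (GAAA, any 2 bases and GAAA again), searched on both strands and found here in its reverse form.
Ifit3: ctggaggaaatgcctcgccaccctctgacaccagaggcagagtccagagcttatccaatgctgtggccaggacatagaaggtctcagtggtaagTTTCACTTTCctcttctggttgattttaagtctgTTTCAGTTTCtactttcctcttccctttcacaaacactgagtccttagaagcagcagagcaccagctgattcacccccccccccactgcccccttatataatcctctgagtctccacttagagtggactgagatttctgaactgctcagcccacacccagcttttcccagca
Ifit3b: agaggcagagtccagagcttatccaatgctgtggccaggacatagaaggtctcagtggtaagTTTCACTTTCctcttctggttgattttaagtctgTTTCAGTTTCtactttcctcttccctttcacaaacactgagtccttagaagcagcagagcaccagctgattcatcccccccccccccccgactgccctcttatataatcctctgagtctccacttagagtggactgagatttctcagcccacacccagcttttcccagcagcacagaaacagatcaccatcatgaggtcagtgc
Ifit1: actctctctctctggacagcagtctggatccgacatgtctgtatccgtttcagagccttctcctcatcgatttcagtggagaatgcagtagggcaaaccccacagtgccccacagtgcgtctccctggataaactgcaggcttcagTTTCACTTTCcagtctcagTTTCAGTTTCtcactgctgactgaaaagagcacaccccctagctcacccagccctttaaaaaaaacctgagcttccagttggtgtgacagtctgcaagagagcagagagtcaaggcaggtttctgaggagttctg
Each holds the same pair of matches, TTTCACTTTC and then TTTCAGTTTC. In a pairwise alignment the windows of Ifit3 and Ifit3b shared 258 of 300 bases (86%), and those of Ifit3 and Ifit1 shared 164 (54.7%). Of the 25 interferon-response members with a RefSeq promoter, 13 (52%) held the ISRE core, against 2 of 35 cytokine and inflammation members (5.71%) and 308 of 8114 genes (3.8%). The GAS motif TTCNNNGAA, which STAT dimers bind, was present in 8 of 25 (32%), 3 of 35 (8.57%) and 8.11%. The 25 include the window of the Ifi35 row, which lies on chromosome 12 and not near Ifi35 on chromosome 11. That window held 0 matches to these motifs. Matches of GAS and the ISRE core can overlap by some bases, as in Bst2. The ISRE core was also present in Oas1a and Gbp2, which had lower KO means, and a match says only that the letters are there.

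Ifi27l2a, a gene that type I interferon induces, was the effector with the smallest p. Ifi27l2a had 10.7, 12.7 and 127 CPM in the KO libraries, against 162, 190.5 and 129 CPM in the WT libraries. KO 1 and KO 2 were far below every WT library, but KO 3 was at 127 CPM, next to the 129 CPM of WT 3. Ifi27l2a had a log2 fold change of −2.58 (SE 0.77) and a limma adjusted p of 0.298, and DESeq2 gave an adjusted p of 0.708. Without KO 3 limma gave a log2 fold change of −3.71 with an adjusted p of 0.00795. Leaving out the KO library nearest to WT must enlarge the difference, so that p is no separate evidence. Over all 10189 genes that fit called 3 lower and 0 higher. The KO order of this gene differed from that of the leukocyte marker sum, in which KO 2 was highest.

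Among the other antiviral effectors, Oasl2 and Oas1a belong to the family of oligoadenylate synthetases, which sense double-stranded RNA. Oasl2 had 0, 9.31 and 9.79 CPM in the KO libraries, against 11.9, 26.7 and 7.62 CPM in the WT libraries. Oas1a had 1.53, 13.2 and 12.2 CPM in the KO libraries, against 9.42, 18.3 and 7.04 CPM in the WT libraries. Both were lowest in KO 1 and highest in WT 2, with log2 fold changes of −1.92 and −0.66. That of Oasl2 rested on KO 1, which had 0 reads, and was −0.48 without it. Bst2 encodes tetherin, which holds budding virus at the cell surface, and Usp18 a protease that removes ISG15 and damps the receptor. Bst2 had 10.7, 29.4 and 16.5 CPM in the KO libraries, against 17.6, 37.3 and 9.97 CPM in the WT libraries. Usp18 had 16.8, 28.4 and 19.6 CPM in the KO libraries, against 17.0, 28.2 and 24.6 CPM in the WT libraries. For Bst2 WT 2 was the highest and WT 3 the lowest library, and for Usp18 the genotypes covered nearly the same range. The log2 fold changes of Bst2, Usp18 and Oas1a changed sign as libraries were left out (−0.55 to 0.38, −0.32 to 0.05 and −1.14 to 0.24). 

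Gbp2 and Irgm1 are interferon-gamma-induced GTPases that act on intracellular pathogens. Gbp2 had 30.5, 12.2 and 14.7 CPM in the KO libraries, against 23.9, 31.2 and 12.3 CPM in the WT libraries. Irgm1 had 20.2, 33.3 and 27.5 CPM in the KO libraries, against 20.7, 26.7 and 12.9 CPM in the WT libraries. The groups overlapped in both, with log2 fold changes of −0.24 and 0.45, and that of Gbp2 ran from −0.63 to 0.04 as libraries were left out. Irgm2, a relative of Irgm1, Ifi35, and the exonuclease gene Isg20 were named after their values were seen, since their groups did not overlap. Irgm2 had 18.7, 21.6 and 15.3 CPM in the KO libraries, against 3.14, 14.5 and 12.9 CPM in the WT libraries. Ifi35 had 21.0, 19.1 and 17.7 CPM in the KO libraries, against 12.6, 15.2 and 13.5 CPM in the WT libraries. The KO values lay above the WT values in both, for Irgm2 mainly through WT 1, and the log2 fold changes were 1.06 and 0.47 with limma adjusted p of 0.506 and 0.581. Irgm2 shares exon bases with Igtp on the same strand. The gene identifier of the Ifi35 row points to a promoter on chromosome 12, while the gene of that symbol lies on chromosome 11. Which gene the Ifi35 row counts is therefore uncertain. Isg20 had KO values below the WT values by a small margin, with a log2 fold change of −0.44 (limma adjusted p = 0.713). The remaining 9 effectors, Ifi27, Ifi30, Ifi44, Ifi203, Ifi204, Ifi205, Gbp7, Iigp1 and Oas3, had log2 fold changes of −2.40 to 0.40 and limma adjusted p of 0.583 or more, and Iigp1 and Ifi44 had 0 reads in 2 libraries each.

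The interferon-response genes moved together from library to library within the WT group, a pattern chosen after the values were seen and given with no test. WT 2 was the highest WT library for 26 of the 32 members (81.2%) and for 21 of 23 effectors (91.3%), against 33.2% of all genes. WT 3 was the highest WT library for 1 of the 32. The median log2 deviation of the 32 members from their own means was −0.21, 0.37 and 0.22 in the KO libraries, against −0.08, 0.47 and −0.44 in the WT libraries. WT 2 and WT 3 were thus farther apart than any KO library was from another. Among 46 further interferon genes with a row, WT 2 was the highest WT library for 31 (67.4%), and among the 24 macrophage and leukocyte markers for 15 (62.5%), although their sum was 7102 CPM in WT 2, against 7535 CPM in WT 1, and without Lyz2 3776 CPM in WT 2, against 3396 CPM in WT 1. WT 2 was also the library with the fewest reads, 989217, and the part of depth in this order was not tested.

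**Figure D4:**
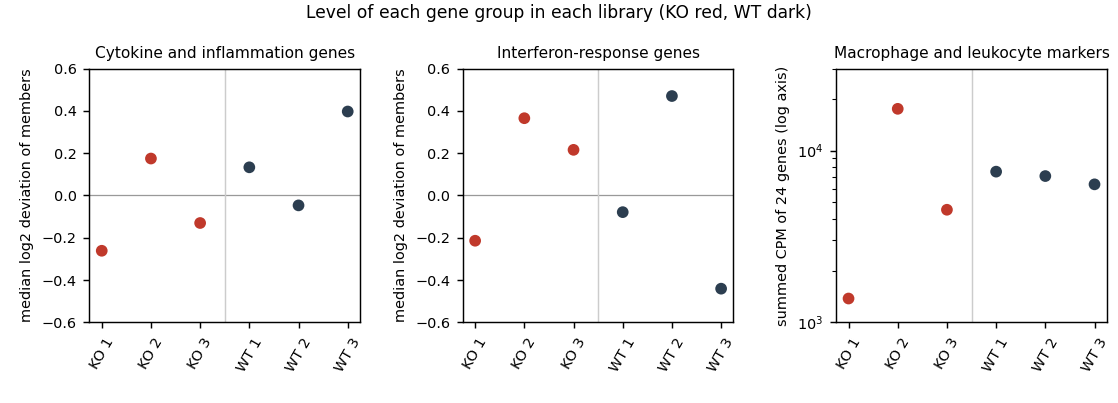
Level in each library of the 47 cytokine and inflammation genes and the 32 interferon-response genes, as the median over members of log2(CPM + 0.5) minus the gene's mean over 6 libraries (y axes, left and middle), and the summed CPM of 24 macrophage and leukocyte markers (right, log axis). Interferon genes are highest in WT 2 (0.47) and lowest in WT 3 (−0.44), and the marker sum is highest in KO 2 (17482 CPM) and lowest in KO 1 (1377 CPM).

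Within the KO group, the order KO 2, KO 3, KO 1 from high to low held for 31 of 79 members (39.2%), for 22 of 24 macrophage and leukocyte markers (91.7%) and for 18.5% of all genes. KO 2 was the highest KO library for 50 of 79 members (63.3%), against 33.9% of all genes. The cytokine and inflammation genes had median deviations of −0.26, 0.17 and −0.13 in the KO libraries, against 0.13, −0.05 and 0.40 in the WT libraries, so that KO 2 lay above WT 1 and WT 2. WT 3 was the highest WT library for 22 of these 47 genes (46.8%), against 33.3% of all genes. The part of leukocyte transcripts in these orders was not tested.

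Further genes of the interferon pathway form a list of receptors, kinases, nucleic acid sensors, antigen presentation genes and other induced genes. Of 54 such genes 46 had a row, 21 with lower and 25 with higher KO means and a median log2 fold change of 0.10. Limma, edgeR, DESeq2 and limma-voom called 0 after adjustment, and 0 lower and 2 higher had a limma p below 0.05 before it. The 2 were Ly6a, a surface protein of stem and stromal cells, and Ifitm2, a membrane protein that restricts virus entry. Ly6a had 64.1, 88.7 and 51.4 CPM in the KO libraries, against 39.6, 18.3 and 41.6 CPM in the WT libraries. Ifitm2 had 75.6, 91.6 and 89.9 CPM in the KO libraries, against 71.6, 46.5 and 61.0 CPM in the WT libraries. The KO values lay above the WT values in both, with log2 fold changes of 1.08 and 0.54 and limma adjusted p of 0.323 and 0.432. Dhx58, a cytoplasmic RNA sensor, and Tapbp, which loads peptides on MHC class I, followed with 0.64 and 0.48.

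Of the 79 members, 20 have exon bases that an annotated gene on the opposite strand also covers, and their median log2 fold change was −0.14, against −0.20 for the other 59. The strand setting of the authors' counting is not given, and without strand the reads of such partners cannot be told apart. At least 1 library had 0 reads in 9 members, and for these the log2 fold change depends on the pseudocount.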

How the data were processed

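RNA-seq of 3 KO and 3 WT cultures was deposited as 1 table of 10189 genes. Per the name of the table, the deposited signal is TMM-normalized CPM, which the authors computed from reads per gene. Per the submitters' processing notes, bcl2fastq, cutadapt 1.18, HISAT2 2.1.0, StringTie 1.3.5, edgeR and the build mm10 were used, with no roles stated. Not given in the sources used here are the annotation, the strand setting and how low genes were filtered. The design had assumed plain CPM, and the same log-scale test was kept for this signal. Dividing by the smallest step gave whole reads for 100% of the values of every library (tolerance 0.001 reads). The limits set by 3 reads cover counting error only.

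KO was compared with WT by limma 3.58.1 (R 4.3.3), two-sided, with an intensity trend on log2(CPM + 0.5), and Benjamini-Hochberg adjustment over all genes. On this scale the pseudocount shrinks the fold change of low genes, while a library at or near 0 can enlarge the difference of mean logs, as for Ccr1 (−4.18 with limma, −3.31 with edgeR). The count tests of edgeR 4.0.16 (quasi-likelihood) and DESeq2 1.42.0, and limma-voom, were run on the recovered reads as alternatives, and called 0, 42 and 0 genes higher and 2, 73 and 1 lower over the table. Other alternatives were the pseudocount (0.1 and 2), a mean of at least 20 CPM, upper-quartile and quantile scaling, limma without a trend or with robust empirical Bayes, a replicate block, and leaving out libraries. The procedure was tested on simulated data. No 2 libraries of a genotype were alike within sampling noise, with a chi-square per degree of freedom of 10.5 to 33.7 for pairs without WT 1. Pairs with WT 1 gave 190 and 215, where the expected split counted all reads, with those on Rn45s among them.

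The members and gene lists were chosen with earlier results of these data known, and lists are described by counts and medians with no test. Genes were named by a rule: 38 symbols chosen for their known roles, of which 28 had a row, and in each of 5 role groups the member of smallest p in each direction, the member of highest mean CPM and members with an unadjusted p below 0.05, which gave 36 of the 79. Results of some members are not reported here. Members and library orders named beyond it were chosen after their values were seen. Promoters and the microRNA are from RefSeq, and 60 members had a promoter by their gene identifier. For Ifi35 the identifier and the symbol point to different chromosomes, and its window is counted in all motif shares. 3′ UTRs are from GENCODE M21. Other steps used Python 3.11.15 with pandas 2.3.3, numpy 2.4.6, matplotlib 3.10.9 and scipy 1.17.1.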

Additional observations from a re-analysis of the deposited data

How the results depend on the processing

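Over the whole table limma called 1 gene lower and 0 higher in KO. The count of lower genes was 2 with a pseudocount of 2, 3 without a trend, 3 with robust empirical Bayes, 2 with edgeR, 73 with DESeq2, 2 without KO 2 and WT 1 together, and 0 to 25 as libraries were left out singly. The count of higher genes was 7 without a trend, 1 with robust empirical Bayes, 42 with DESeq2 and 0 to 7 as libraries were left out. Fits that leave 1 library out kept at least 2 in each genotype. Equal replicate numbers do not pair the samples (correlations of their deviations 0.02, 0.07 and −0.06), and a fit with the number as a replicate block called 0 genes lower and 0 higher. The count of interferon-response members with lower KO means was 17 of 32, 8 among members with a mean of at least 20 CPM, where fewer genes are counted, and 10 (without WT 2) to 21 (without WT 3) as libraries were left out. The median of the cytokine and inflammation genes was −0.46 (without WT 2) to −0.20 (without WT 3) in those fits, and was negative under each of the 18 alternatives. Members with no opposite-strand exon gave medians of −0.25 and −0.12 for the cytokine and interferon genes. Of 35 named members 16 changed sign under at least 1 alternative, and the cause was not tested. Without KO 2 and WT 1 together this held for Il1r1 (0.031), Ptges (0.16), Nfkbiz (−0.010), Gbp2 (0.11) and Nfkbia (0.43). It held under edgeR for Ptgs2 (−0.045), Irf3 (−0.038) and Irf8 (0.11), under DESeq2 for Ptgs2 (−0.014), Irf3 (−0.021) and Irf8 (0.13), under limma-voom for Irf9 (0.004915), under upper-quartile scaling for Nfkbia (0.025), and under quantile scaling for Irf3 (−0.0003638). As single libraries were left out, log2 fold changes ran from −0.15 to 0.26 for Il6st, −0.69 to 0.10 for Cxcl12, −0.60 to 1.15 for Ptgs2, −0.58 to 0.13 for Il1r1, −0.72 to 0.21 for Ptges, −0.11 to 0.75 for Nfkbiz, −0.53 to 0.38 for Irf9, −0.32 to 0.051 for Usp18, −0.63 to 0.041 for Gbp2, −0.46 to 0.13 for Irf7, −0.37 to 0.37 for Nfkbia, −0.55 to 0.38 for Bst2, −0.16 to 0.81 for Irf1, −0.25 to 0.43 for Irf3, −1.57 to 0.56 for Irf8 and −1.14 to 0.24 for Oas1a. Without changing sign, log2 fold changes moved by over 1.5 times as 1 library was left out for Tnfaip2 (0.29 without KO 2), Tnfaip3 (0.23 without WT 2), Il11ra1 (0.50 without WT 1), Irgm1 (0.17 without WT 3) and Stat2 (0.42 without WT 3), beside those given with their values above. With 3 libraries a genotype and 9 members with 0 reads in a library, small differences of low genes were not detectable at this depth.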
